A study of Drosophila melanogaster with 11 samples.

Results

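NaPi-III encodes a Drosophila member of the type III sodium-dependent phosphate cotransporters. The arrays held its transcript FBtr0076213, which is 1 of 15433 transcripts measured. It was chosen by its signals in the input, Smaug RIPs and control RIPs of these same arrays, so all of its values are given as a description and no test was made of them. The RefSeq gene table pairs FBtr0076213 with NaPi-III (CG42575, formerly CG7628) through a synonym. It lists 2 transcripts for the gene, and only FBtr0076213 was analysed here. Like 65.3% of the transcripts on the array, FBtr0076213 was measured with 5 probes.

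Proteins of this family sit in the plasma membrane and, in mammals, carry inorganic phosphate into the cell together with sodium ions. Phosphate is needed for nucleotides, phospholipids and ATP, and the early fly embryo lives at first on mRNAs that the mother loaded into the egg. Smaug is an RNA-binding protein that recognizes stem-loops in many of these maternal mRNAs, represses their translation and recruits the machinery that removes poly(A) tails, which leads to mRNA decay. RIP-Chip precipitates such a protein with an antibody and measures the co-precipitated mRNAs on microarrays, and a precipitation with non-immune serum shows what is recovered without the specific antibody.

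Wild-type embryos, kept at 25°C, were taken at an age of 0 to 3 hours. The labels name the strain Oregon-R, whereas the paper's methods name another stock as wild type. There were 11 hybridizations, namely 4 of Smaug RIPs (guinea pig anti-Smaug antibody), 4 of control RIPs (normal guinea pig serum) and 3 of input RNA from the crude extract. Each RIP had 3 biological replicates, of which replicate 1 was hybridized on 2 arrays, 1a and 1b, averaged here to give n = 3. The labels call the 3 inputs technical replicates of 1 RNA. The paper's account of its replicates instead calls differently numbered arrays biological replicates and makes no exception for the input, so it is uncertain whether the input SD covers the arrays only. All Smaug RIPs carried the dye Cy5 and all inputs Cy3, while control RIPs 1a and 2 carried Cy5 and 1b and 3 Cy3. Of 6 phosphate transport genes listed for comparison (NaPi-III, NaPi-T, Picot, Mpcp1, Mpcp2 and PXo), only NaPi-III could be paired with a transcript, and of 7 maternal mRNAs listed as markers of the stage none could, so the stage was not checked against markers and the other phosphate transporters were not analysed here. Each embryo extract was a bulk sample, in which differences between embryos or between parts of an embryo cannot be seen.

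The NaPi-III transcript was well represented in the input. Its log2 signal was 10.46, 10.91 and 10.86 on the 3 input arrays, with a mean of 10.74 ± 0.24 (SD, n = 3 arrays). The mean lay 3.89 log2 units above the median input signal of all transcripts, 6.85. Transcripts above that median counted as expressed, which kept 7716, and 1697 of these had a higher mean input signal than NaPi-III. Input 1 was the lowest of the 3, by 0.39 log2 units. The SD was close to the median SD of expressed transcripts in the input, 0.23.

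In Smaug RIPs the log2 signal of NaPi-III was 10.13 on array 1a, 10.31 on array 1b, 10.03 in replicate 2 and 8.76 in replicate 3. Replicates 1 and 2 lay close together, and replicate 3 was 1.27 log2 units below the next lowest array. The technical replicates 1a and 1b differed by 0.17. On the linear scale the 4 signals were 1124, 1266, 1044 and 433. The mean of the 3 biological replicates was 9.67 ± 0.79 on the log2 scale (SD, n = 3), and 86.4% of expressed transcripts had a smaller SD between Smaug RIP replicates than NaPi-III.

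In control RIPs the log2 signal of NaPi-III was 7.93 on array 1a, 8.65 on array 1b, 8.44 in replicate 2 and 7.93 in replicate 3. The linear signals were 244, 403, 348 and 244. Every control RIP array lay below every Smaug RIP array, but the highest control array, 1b, came within 0.11 log2 units of Smaug RIP 3, the lowest Smaug array. The mean was 8.22 ± 0.26 (SD, n = 3), and the spread was small for this group, since 19.3% of expressed transcripts had a smaller SD. Arrays 1a and 1b of the control RIP, labelled with different dyes, differed by 0.72, which is more than the range of the 3 biological replicates, 0.51. The control signals were also not far from the middle of the arrays, 0.58 to 1.35 log2 units above the array medians of 7.30 to 7.35. No background level was used here, so the size of any fold against them is uncertain.

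**Figure D1:**
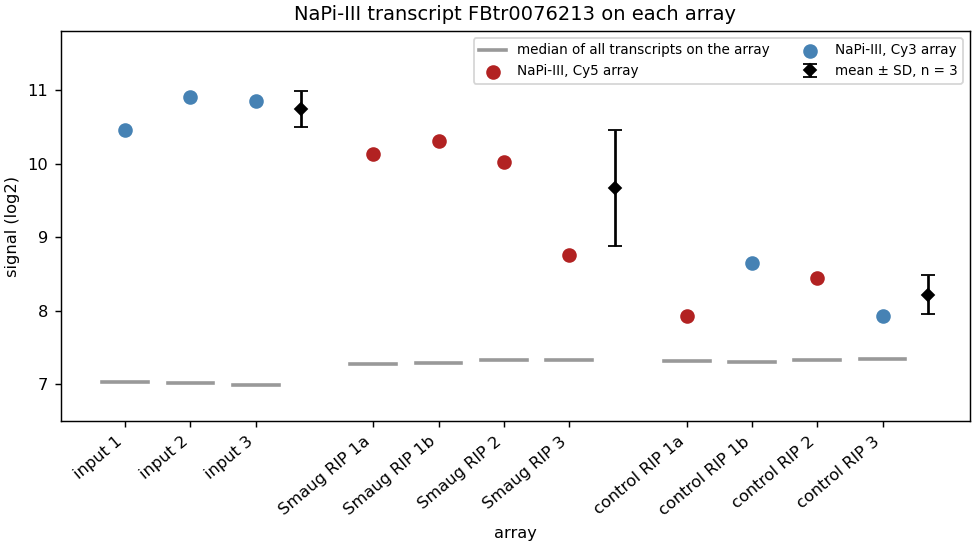
Log2 signal of the NaPi-III transcript (vertical axis) on each of the 11 arrays (horizontal axis), with red points for Cy5 and blue points for Cy3, grey bars for the median of all transcripts on that array and black diamonds for the mean ± SD of each group (n = 3, with 1a and 1b averaged). The Smaug RIP arrays sit between 8.76 and 10.31, all above the control RIP arrays at 7.93 to 8.65 and below the inputs at 10.46 to 10.91.

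Smaug and control RIPs were compared to see how the relative signal of NaPi-III differed between antibody and control serum. The authors had normalized the arrays by the RMA quantile method, so total amounts of recovered RNA cannot be compared. As deposited, the RIP arrays nevertheless did not share 1 distribution of signals. Their medians ran from 7.27 to 7.35 and their 95th percentiles from 8.75 to 9.54 (log2). Differences between RIP arrays, also those of single replicates, can therefore hold differences in array scale. The mean log2 signal in Smaug RIPs exceeded that in control RIPs by 1.45, a 2.73-fold difference, with an SD of 0.56 between the 3 differences of same-numbered replicates. The groups did not overlap, and the lowest Smaug RIP replicate exceeded the highest control RIP replicate by 0.32 log2 units. Such a separation of the 3 biological replicates, Smaug above control, was found for 8.72% of expressed transcripts, and a separation of all 4 arrays per RIP, which NaPi-III also showed, for 4.99%. The mean difference was larger than the range of the control RIP replicates but not larger than that of the Smaug RIP replicates, 1.46. Nothing was read from these counts about NaPi-III, which was picked on the same values.

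The size of the difference was not even across replicates. By the image names in the files, same-numbered Smaug and control RIPs appear to have shared a slide, and replicate 3 of both RIPs appears to be the 2 channels of 1 array. The Smaug RIP was 2.21 log2 units above the control RIP for 1a and 1.65 for 1b, 4.61-fold and 3.14-fold. For replicate 2 it was 1.59 above and for replicate 3 it was 0.83 above, 3.01-fold and 1.77-fold. NaPi-III was thus higher in the Smaug RIP on each of the 4 slides, as were 13.7% of expressed transcripts, and replicate 3 gave the smallest difference of the 4. Counted from the highest difference among the 7716 expressed transcripts, it ranked 152 for 1a, 235 for 1b, 460 for replicate 2 and 1577 for replicate 3. The 2 slides with both RIPs in Cy5, 1a and 2, gave differences of 2.21 and 1.59, and the 2 with the control RIP in Cy3 gave 1.65 and 0.83. With Cy5 arrays only, the mean difference was 1.48, but this setting drops control RIPs 1b and 3 while keeping Smaug RIPs 1b and 3, so it changes the replicates as well as the dye. With only 1a and 2 of both RIPs, all in Cy5, a setting added after the data had been seen, it was 1.90. Without Smaug RIP replicate 3 it was also 1.90, the largest among the alternatives tried, and without Smaug RIP replicate 1 it was 1.17, the smallest.

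**Figure D2:**
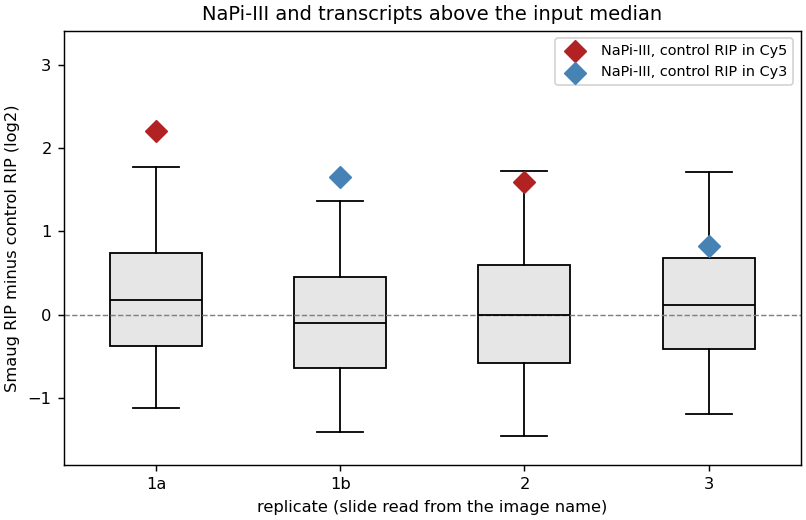
Log2 difference between Smaug and control RIP (vertical axis) by replicate, 1a, 1b, 2 and 3, each on its own slide (horizontal axis), with diamonds for NaPi-III, coloured by the dye of the control RIP, and boxes for the 7716 expressed transcripts (quartiles with the median, whiskers from the 5th to the 95th percentile). NaPi-III lies above the whisker for 1a and 1b, at 2.21 and 1.65, just inside it for replicate 2, at 1.59, and near the upper quartile for replicate 3, at 0.83.

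By the mean difference of 1.45, NaPi-III ranked 278 of 7716, with 277 expressed transcripts above it and 7438 below. The median difference of expressed transcripts was 0.04 and the 95th percentile 1.22, so NaPi-III lay in the upper tail but far from the highest difference, 4.12. The next transcript on either side had the same difference to 2 decimals. A difference 1 SD (0.56) higher would have ranked 119 and one 1 SD lower would have ranked 680. Between these bounds lay 561 expressed transcripts, NaPi-III among them. The SD describes differences of single replicates and not the error of their mean, so these ranks are not error bounds of the rank. A total of 554 expressed transcripts had at least 2-fold more signal in Smaug RIPs, of which 391 showed no overlap of replicates. Among the 673 transcripts without overlap NaPi-III ranked 235 by size, above their median of 1.12. The rank was 500 without replicate 1 of both RIPs and 200 without replicate 3 of both. With no filter on the input it was again 278, so none of the transcripts below the input median had a larger difference.

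Within each array, the position of NaPi-III among expressed transcripts moved between input, Smaug RIP and control RIP. On the input arrays 73.2%, 80.2% and 79.7% of expressed transcripts had a lower signal. In Smaug RIPs 1a, 1b and 2 this share was 94.3%, 94.5% and 94.9%, and in Smaug RIP 3 it was 87.2%. In control RIPs 1a, 1b, 2 and 3 it was 60.7%, 78.0%, 83.0% and 73.6%. NaPi-III thus stood higher in the order of every Smaug RIP array than of any input or control RIP array, while the orders of input and control RIP overlapped. This holds within arrays and does not depend on the scale of the signals. An order within arrays does not remove differences between dyes. All Smaug RIPs carried Cy5, all inputs Cy3 and the control RIPs either dye.

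Ratios to the input set the RIP signal of NaPi-III beside its signal in the extract. The log2 ratio to the mean input was -0.61 and -0.44 on Smaug RIP arrays 1a and 1b, -0.71 in replicate 2 and -1.98 in replicate 3, with a mean of -1.07 ± 0.79 (SD, n = 3), a ratio of 0.475. In control RIPs it was -2.81, -2.09, -2.30 and -2.81 for 1a, 1b, 2 and 3, with a mean of -2.52 ± 0.26 (SD, n = 3), a ratio of 0.174. Both ratios share the same mean input, so their difference is again 1.45. Over all expressed transcripts the median was -1.66 for Smaug RIPs and -1.82 for control RIPs. Relative to these medians NaPi-III lay at 0.58 in Smaug RIPs and at -0.70 in control RIPs, on opposite sides. That position was shared by 546 of the 7716 expressed transcripts, counting NaPi-III. Without Smaug RIP replicate 3, its log2 ratio in Smaug RIPs was -0.62. From the highest ratio downwards it ranked 2630 among the 7716 for Smaug RIPs and 5566 for control RIPs. Bounds set at the ratios of NaPi-III itself left 66 of the 7716 expressed transcripts, NaPi-III included. These had a ratio in Smaug RIPs at least as high and one in control RIPs at least as low. In neither RIP was the ratio itself extreme, since in Smaug RIPs it lay below the upper quartile, -0.71, and in control RIPs above the lower quartile, -2.62.

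**Figure D3:**
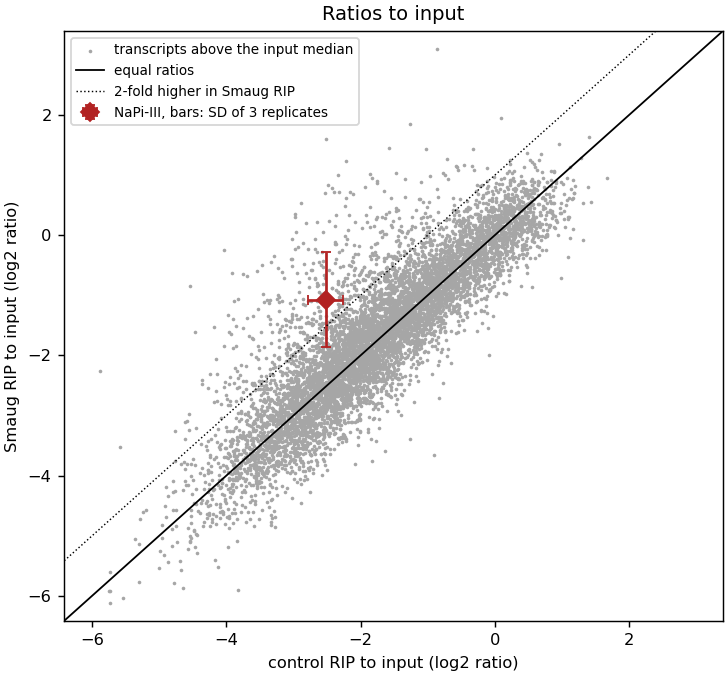
Log2 ratio of Smaug RIP to input (vertical axis) against log2 ratio of control RIP to input (horizontal axis), with grey points for expressed transcripts and a red diamond for NaPi-III, whose bars show the SD of 3 replicates. NaPi-III, at -2.52 and -1.07, lies above the dotted line that marks 2-fold higher signal in Smaug RIPs. It sits inside the upper left part of the cloud, with other expressed transcripts further above that line.

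The level of a ratio to input rests on how inputs and RIPs were scaled. It also rests on the dyes, since all inputs carried Cy3, all Smaug RIPs Cy5 and the control RIPs either dye. Input arrays reached higher signals, with 95th percentiles of 11.68 to 11.72 (log2) against 8.75 to 9.54 for RIP arrays. As deposited, inputs and RIPs thus did not share 1 distribution of signals, so their ratios are not on a common scale. No source used here states how both kinds of array were scaled to each other. When all 11 arrays were quantile normalized together, the log2 ratio of NaPi-III turned to 1.17 in Smaug RIPs and moved to -0.30 in control RIPs. Whether a Smaug RIP held more or less NaPi-III than the input is therefore not settled by these signals. The difference between the RIPs, 1.33 when the 8 RIP arrays were quantile normalized together, kept its direction.

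The transcripts whose profile over the 8 RIP arrays was most like that of NaPi-III were FBtr0078668 and FBtr0075035, with Pearson correlations of 0.992 and 0.981 over 8 arrays. FBtr0078668 had log2 signals of 10.48, 11.35, 10.80 and 8.57 on Smaug RIP arrays 1a, 1b, 2 and 3 and of 7.37, 8.62, 8.34 and 7.37 on the control RIP arrays. Its mean difference was 2.19, and its mean log2 input signal, 10.72, was close to that of NaPi-III. FBtr0075035 was lower throughout, with Smaug RIP signals of 8.56, 8.93, 8.54 and 7.36 and control RIP signals of 6.52, 7.60, 7.27 and 6.98 and a mean difference of 1.11. Both repeated the drop of NaPi-III in Smaug RIP 3 and the high signal in control RIP 1b. With the mean of each RIP removed, which leaves the pattern between arrays of 1 RIP, the correlations were 0.981 and 0.963. Both transcripts had been picked for their correlation on these same arrays. These values and the shared drop are therefore no separate support for a likeness. The choice of measure mattered to the neighbours found. By Spearman correlation FBtr0078668 came only 13th and FBtr0075035 4th, and just 6 of the 20 transcripts closest by Pearson correlation were again among the closest 20. With 1a and 1b averaged, giving 6 RIP samples, 13 of them were, and with the mean of each RIP removed 5 were, FBtr0078668 being first in both. The points of these correlations share slides, dyes and extracts, and the 2 were the highest of 7715 transcripts compared, of which 130 reached a correlation of at least 0.9.

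Among the 15 other expressed transcripts with a single gene name here, those of rdx, sle and Uba1 were most like NaPi-III. Among all 7715 transcripts compared, they ranked only 241, 1135 and 1272 by this correlation. The correlation over the 8 RIP arrays was 0.856 for rdx, whose product links substrates to a Cullin-type ubiquitin ligase, 0.609 for slender lobes (sle), which encodes a nucleolar protein, and 0.585 for Uba1, the ubiquitin-activating enzyme. Their mean differences between Smaug and control RIPs were 2.34, 1.55 and 1.29, on both sides of the 1.45 of NaPi-III. With the mean of each RIP removed the correlations were 0.461, 0.129 and -0.425. Within a RIP rdx, sle and Uba1 thus followed NaPi-III less closely than FBtr0078668 and FBtr0075035, which had been picked as the closest of all 7715. Uba1 was highest in Smaug RIP 3, where NaPi-III was lowest. In control RIP 3 the log2 signal of sle, 10.49, was its highest of that RIP, while that of NaPi-III was among its lowest.

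**Figure D4:**
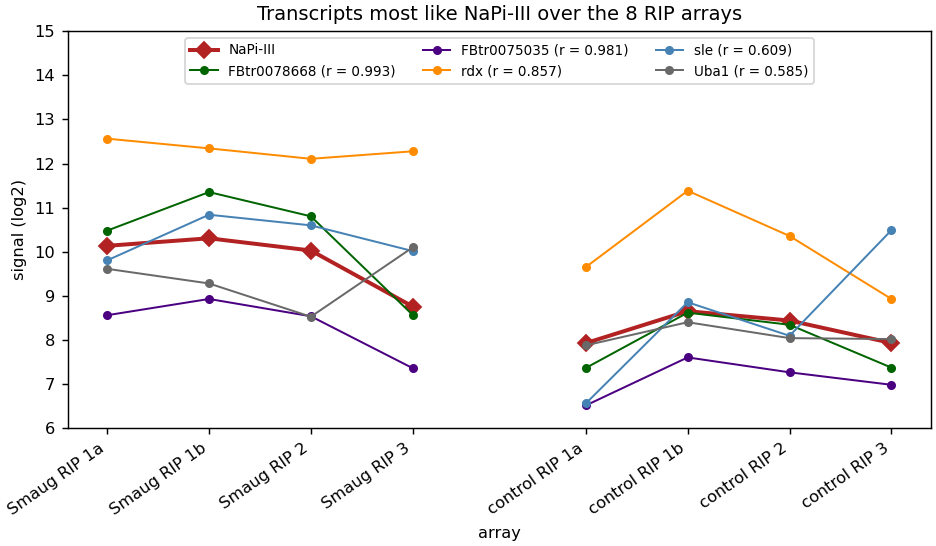
Log2 signal (vertical axis) on the 4 Smaug RIP and 4 control RIP arrays (horizontal axis) for NaPi-III, the 2 transcripts with the highest Pearson correlation with it and the 3 most alike with a gene name. Lines only join the points of 1 transcript within a RIP. FBtr0078668 and FBtr0075035 fall with NaPi-III in Smaug RIP 3, whereas Uba1 is highest there.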

How the data were processed

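RNA from Smaug RIPs, control RIPs and input was reverse transcribed with anchored oligo(dT) primers and hybridized to NimbleGen arrays. Signals were summarized and normalized by the authors with the RMA quantile method (version not stated). The deposited input signals are log2 values, and the deposited RIP signals are linear intensities that were turned into log2 here. Depth has no meaning for these arrays, and their number limits the precision.

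Arrays 1a and 1b were averaged, and transcripts above the median mean input signal counted as expressed. Means, SDs, differences, ranks and Pearson correlations were computed with Python 3.11.15, pandas 2.3.3 and numpy 2.4.6 by functions tested on simulated data. No p-value was computed. The number of probes was read from the deposited files. Slides were read from image names, whose channel matched the labelled dye on all 11 arrays. The study's own test, SAM, was not run. Of the transcript identifiers, 17 had a single gene name in the RefSeq table (Release 6). Its coordinates were not used, since the files name no genome build. No sequence of NaPi-III was analysed here, so recognition elements for Smaug were not searched.

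The named transcripts were NaPi-III, phosphate transport genes, and those most like NaPi-III (the 2 highest correlations and the 3 highest with a gene name). The transcript, the lists and the rules were chosen with earlier results of these data known. Alternatives changed the use of technical replicates, dye, scaling, averaging, replicates, input filter and the measure of likeness.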

Additional observations from a re-analysis of the deposited data

How the results depend on the processing

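No paired test was made, by choice, since the transcript was picked on these arrays. The differences of same-numbered replicates, with an SD of 0.56, are given instead. The difference of 1.45 between Smaug and control RIPs stayed positive under all 17 alternatives, between 1.17 and 1.90. This direction was largely fixed in advance, since the replicates of the RIPs do not overlap. The log2 ratios to input, -1.07 for Smaug RIPs and -2.52 for control RIPs, became 1.17 and -0.30 when all 11 arrays were quantile normalized together, and that of control RIPs became -2.84 with arrays centred on their medians. Without Smaug RIP replicate 3, that of Smaug RIPs became -0.62. Leaving out 1 of 3 replicates cannot move their mean by as much as their SD (0.79 here). The size of this move is therefore no sign of stability. The rank of 278 ranged from 200 to 500 when replicates were left out and was 178 with Cy5 arrays 1a and 2 only, an alternative chosen after seeing the data. Of the 20 transcripts most like NaPi-III, 6 remained with Spearman correlation, 13 over 6 samples and 5 with the mean of each RIP removed. The causes were not tested.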
